A study of Homo sapiens with 4 samples.

Results

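The YAP and TEAD genes examined here were 9 of the 20033 protein-coding genes annotated on the primary chromosomes. They comprised the coactivators YAP1 and WWTR1 (TAZ), the DNA-binding factor TEAD1, the target genes CCN1, CCN2, AMOTL2 and ANKRD1, the adaptor AJUBA and the kinase LATS2. They were chosen by name, with earlier results of these data known, so the shares of all genes given below are for scale only. Every RNA polymerase II (Pol II) peak inside a gene or within 5 kb of it was recorded. SK-OV-3, an established human ovarian cancer cell line, carried a stable lentiviral short hairpin against LacZ, a bacterial gene (shLacZ, the control), or against RRN3 (shRRN3), the factor that brings RNA polymerase I to ribosomal RNA genes. Chromatin was precipitated with an antibody to Pol II, and the question was whether loss of RRN3 changes where Pol II sits, at gene starts and past gene ends. Each hairpin had 1 Pol II library and 1 input library, and the 2 lists of Pol II peaks were the files analysed. The sources used here do not say which RRN3 hairpin the library came from. With 1 library per hairpin no difference between the lists had a replicate check, so values are given side by side without a test.

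YAP and TAZ have no DNA-binding domain of their own and reach their target genes through TEAD factors, often at enhancers that also bind AP-1. The Hippo kinases LATS1 and LATS2 phosphorylate YAP and TAZ and hold them in the cytoplasm, and AJUBA restrains the LATS kinases. CCN1, CCN2, ANKRD1, AMOTL2 and LATS2 are themselves activated by YAP and TEAD, and the last pair feed back on the pathway as inhibitors.

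The promoters of 4 members show how the TEAD motif (GGAATG, either strand) was placed relative to Pol II. The 250 bases before each gene start come from RefSeq on GRCh38.p14, read along the gene's strand, and 7 of the 9 members had an entry (CCN1 and TEAD1 did not). Capitals mark the TEAD motif, the TATA box (TATAAA) and the AP-1 motif, counted loosely as TGANTCA with any base at N. CCN2 held 3 TEAD motifs and a TATA box and lay under a Pol II peak in both lists. ANKRD1 held 2 TEAD motifs and an AP-1 motif and had no peak in either list. YAP1 held 1 TEAD motif, and AJUBA held none of these motifs, and both promoters were covered in the shRRN3 list alone.
CCN2, chr6:131951373-131951622, minus strand: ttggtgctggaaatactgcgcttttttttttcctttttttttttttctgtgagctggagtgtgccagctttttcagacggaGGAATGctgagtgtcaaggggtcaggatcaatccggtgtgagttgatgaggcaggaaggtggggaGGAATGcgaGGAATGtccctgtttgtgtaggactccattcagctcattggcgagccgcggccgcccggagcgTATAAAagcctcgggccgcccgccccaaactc
ANKRD1, chr10:90921088-90921337, minus strand: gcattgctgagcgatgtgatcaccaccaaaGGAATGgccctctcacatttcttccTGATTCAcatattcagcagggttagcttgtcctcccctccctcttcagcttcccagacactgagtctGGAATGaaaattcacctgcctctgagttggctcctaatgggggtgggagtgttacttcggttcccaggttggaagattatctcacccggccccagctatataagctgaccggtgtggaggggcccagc
YAP1, chr11:102110197-102110446, plus strand: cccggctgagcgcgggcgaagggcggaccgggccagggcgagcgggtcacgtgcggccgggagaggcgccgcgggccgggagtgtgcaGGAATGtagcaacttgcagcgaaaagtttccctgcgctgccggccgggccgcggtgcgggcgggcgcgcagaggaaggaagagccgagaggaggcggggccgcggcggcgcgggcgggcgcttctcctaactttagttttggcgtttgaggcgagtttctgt
AJUBA, chr14:22982552-22982801, minus strand: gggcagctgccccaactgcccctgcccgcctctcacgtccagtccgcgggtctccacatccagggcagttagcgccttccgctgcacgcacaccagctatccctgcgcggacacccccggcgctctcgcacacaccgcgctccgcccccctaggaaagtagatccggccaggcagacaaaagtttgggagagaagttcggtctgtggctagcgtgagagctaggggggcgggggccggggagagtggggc

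In CCN2 the TEAD motifs began at positions -169, -104 and -95, counted from the start, and the TATA box at -32. The shLacZ peak covered 166 of these 250 bases and the shRRN3 peak all of them. In ANKRD1 the TEAD motifs began at -220 and -128 and the AP-1 motif at -195. The YAP1 motif began at -162, and the shRRN3 peak covered 112 bases of this promoter, against 198 bases of the AJUBA promoter. Over 15842 RefSeq promoters of the same length, 10.1% held a TEAD motif, 9.23% a TATA box, 5.04% an AP-1 motif, 56.0% a GC box (GGGCGG) and 1.14% an SRF CArG box. Among the 7 matched members 3 held a TEAD motif and 4 a GC box (YAP1, CCN2, AJUBA and LATS2), and none held a CArG box. The WWTR1 and AMOTL2 entries start at 149703273 and 134375417, away from their canonical starts at 149658025 and 134374447. Neither promoter was covered by a peak. The 300 bases around the centre of the AMOTL2 start peak did hold 1 TEAD motif and 2 GC boxes. A match to such letters describes the sequence and does not show that a factor binds there.

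The peak lists differed in size. The shLacZ list held 4014 peaks with a median width of 304 bp, and the shRRN3 list held 14363 peaks with a median width of 432 bp, or 1.27 and 4.64 peaks per Mb of the primary chromosomes. These lists hold no read counts, so depth and enrichment per library could not be taken from them, and differences in either cannot be told apart from differences in Pol II on chromatin. Peak scores, which rise with the strength of the call, are therefore given as a percentile within a peak's own list. RRN3 itself had no peak in either list. The peak lists hold no RNA or protein levels, so the knockdown could not be checked from them. PAX8, a marker of ovarian tumour cells, and VIM had start peaks in both lists, and KRT8 and KRT18 shared 1 in the shRRN3 list alone, whereas ERBB2 and KRT19, also among the 6 markers of this line, had none. None of 4 markers of other cell types had a start peak in either list, and PECAM1 had a peak in its body in the shRRN3 list.

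Pol II was recorded at CCN1, CCN2, WWTR1, TEAD1 and AJUBA in both lists and at YAP1, AMOTL2 and LATS2 in the shRRN3 list alone, and ANKRD1 had no peak in either. This gave 5 of 9 members with a peak in the shLacZ list, where 14.5% of all protein-coding genes had one, and 8 of 9 in the shRRN3 list, where 39.0% did. The 5 members present in both lists compare with 13.1% of genes, the 3 found with shRRN3 alone with 25.9%, and the 0 found with shLacZ alone with 1.43%. Keeping only the top 3920 shRRN3 peaks by score, as many as the shLacZ list holds on the primary chromosomes, left 5 members with a peak, the same 5 as in the shLacZ list. The share of all genes with a peak in this shortened list was not computed, so this count has no scale beside it.

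**Figure D1:**
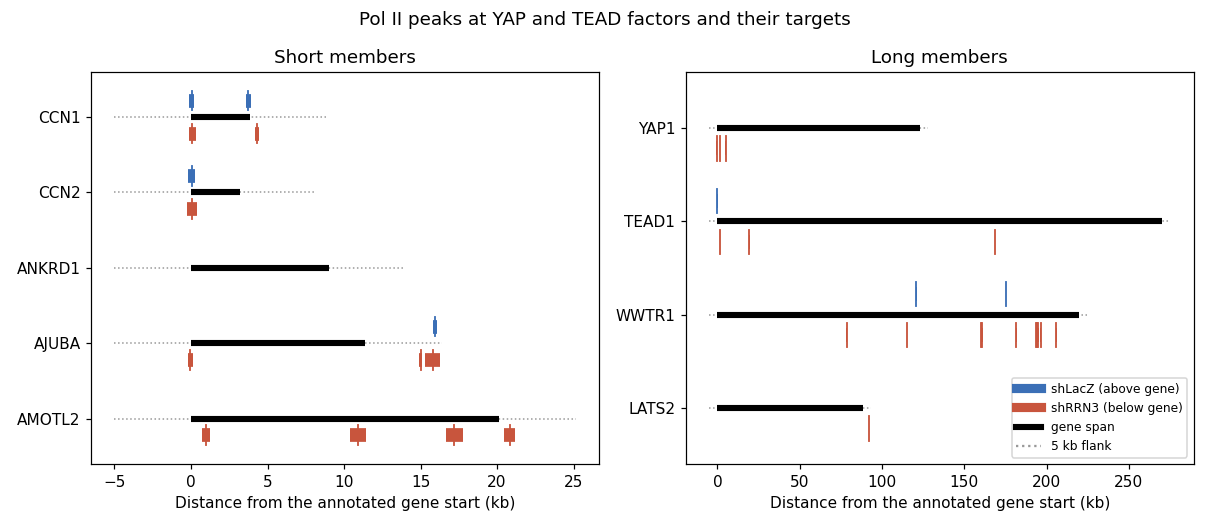
Position of each Pol II peak at the 9 genes, in kb from the annotated gene start, with shLacZ peaks above and shRRN3 peaks below each gene. Thick coloured blocks are peaks to scale, thin vertical ticks mark their midpoints, black bars are gene spans and dotted lines the 5 kb flanks. CCN1 and CCN2 show a start peak in both lists, WWTR1 holds 10 shRRN3 peaks against 2, and ANKRD1 is empty.

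At gene starts, within 1 kb of the annotated start, the shLacZ list held peaks at CCN1, CCN2 and TEAD1 (3 of 9, against 7.75% of all genes). The shRRN3 list held peaks at CCN1, CCN2, YAP1, AMOTL2 and AJUBA (5 of 9, against 24.6%). CCN1 and CCN2 were the 2 members with a start peak in both lists (6.70% of genes), 3 had one with shRRN3 alone (17.9%) and TEAD1 had one with shLacZ alone (1.05%). No member had a peak that lay between 1 and 5 kb before its start. In gene bodies, from 1 kb after the start to the gene end, peaks were found at CCN1 and WWTR1 in the shLacZ list (2 of 9, against 6.14%) and at WWTR1, TEAD1, YAP1 and AMOTL2 in the shRRN3 list (4 of 9, against 19.8%). In the 5 kb past the gene end, CCN1 and AJUBA had a peak in the shLacZ list (2 of 9, against 2.62%), and CCN1, AJUBA, AMOTL2 and LATS2 in the shRRN3 list (4 of 9, against 8.68%). Both shLacZ members were among the latter, so 2 members were in both lists (2.25%), 2 in the shRRN3 list alone (6.43%) and 0 in the shLacZ list alone (0.369%). With only the top 3920 shRRN3 peaks by score, AJUBA alone had a past-the-end shRRN3 peak (1 member against 2 with shLacZ), and the same counts were found with 1 score minimum for both lists. Shares of all genes were not computed for these settings, so whether other genes change likewise was not tested. Leaving out peaks nearer another coding gene's start left 2 members with shRRN3 (CCN1 and AMOTL2) and 1 with shLacZ (CCN1). Start, body and past-the-end regions join, so a peak that spans a border was counted in each.

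YAP1, the coactivator itself (chromosome 11, 102110447 to 102233424, plus strand), had 3 peaks in the shRRN3 list and none in the shLacZ list, whose nearest peak lay 99030 bp from the YAP1 start. The shRRN3 start peak was 447 bp wide, ran from -585 to -139 bp relative to the start and stood at the 58.1 percentile of scores in its list. It also overlapped ENSG00000277459, a long noncoding RNA (lncRNA) on the opposite strand. The other two shRRN3 peaks lay in introns 1 and 2, 1.66 and 4.93 kb into the gene, at the 8.18 and 5.62 percentiles. All YAP1 peaks thus sat near the front of a gene 123 kb long, and both intronic peaks were among the weakest calls of the list.

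WWTR1 encodes TAZ, the paralog of YAP, and carried the most shRRN3 peaks of the 9 genes (chromosome 3, 149517235 to 149736714, minus strand). The shLacZ list had 2 peaks covering 452 bp and the shRRN3 list 10 covering 4933 bp. Neither shLacZ peak was overlapped by a shRRN3 peak. They lay in intron 3 (255 bp, 13.6 percentile) and intron 2 (197 bp, 54.5 percentile), 14771 and 39567 bp from the nearest annotated WWTR1 transcript start. The annotated gene start of WWTR1 rests on a transcript without a defined coding sequence, and the canonical transcript begins 78689 bp further in, at 149658025. A shRRN3 peak of 612 bp covered that canonical start at the 9.42 percentile, and it also overlapped WWTR1-AS1, an lncRNA on the opposite strand. Counted by annotated transcript starts, 7 of the 10 shRRN3 midpoints and 0 of the 2 shLacZ midpoints lay within 1 kb of 1 of 11 WWTR1 starts, whose surroundings made up 6.44% of the gene and its flanks. Of those 7, the 4 around exon 4 were near starts of transcripts annotated as retained intron or nonsense-mediated decay alone. For scale, 52.9% of shRRN3 and 59.4% of shLacZ peaks at all protein-coding genes lay within 1 kb of some coding gene's transcript start, a wider measure.

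The shRRN3 peaks at WWTR1 came in groups. A pair in intron 2 lay 11 bp apart and spanned 1049 bp, and its second peak (149575925 to 149576542, 618 bp) had the highest score of the gene, at the 87.9 percentile. The midpoint of that peak lay 18 bp from the start of WWTR1-206, a transcript annotated as protein-coding. A group of 4 peaks within 2944 bp surrounded coding exon 4, with the peak on that exon at the 81.1 percentile. Another stood alone in intron 3, 549 bp wide and at the 79.5 percentile, 12583 bp from any WWTR1 transcript start. Within the gene and its flanks the density was 8.72 peaks per Mb with shLacZ and 43.6 with shRRN3, and in the 1 Mb on either side it was 6.53 and 25.1. Both values at WWTR1 were thus above those of its surroundings, which were themselves above the densities of the whole genome given earlier.

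TEAD1, the DNA-binding partner (chromosome 11, 12674421 to 12944737, plus strand), was the only member whose start peak was in the shLacZ list alone. That peak was 200 bp wide, covered the start from -90 to +109 bp, and stood at the 23.4 percentile of its list. The nearest shRRN3 peak began 1392 bp after the start, outside the 1 kb window, was 413 bp wide and stood at the 11.7 percentile. With a 2 kb window TEAD1 therefore had a start peak in both lists. Both calls near the start were weak in their lists, whereas the next one, in intron 2 at 19.4 kb (12693317 to 12694277), was 961 bp wide and stood at the 85.0 percentile in the shRRN3 list. A further shRRN3 peak lay in intron 3, 169 kb into the gene, at the 47.4 percentile.

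CCN1 (CYR61) and CCN2 (CTGF) encode secreted matricellular proteins and are the usual readouts of YAP activity. At CCN1 (chromosome 1, 85580761 to 85584589, plus strand) the start peak was 272 bp wide in the shLacZ list, at the 63.4 percentile (rank 1471), and 465 bp wide in the shRRN3 list, at the 91.7 percentile (rank 1189). At CCN2 (chromosome 6, 131948176 to 131951372, minus strand) it was 404 bp wide at the 82.8 percentile (rank 693) with shLacZ and 658 bp wide at the 90.6 percentile (rank 1349) with shRRN3. Each shLacZ peak lay wholly inside its shRRN3 counterpart. The peak midpoints at CCN2 were 1 bp apart, and those at CCN1 44 bp apart. Start coverage was 1.71 times as wide with shRRN3 at CCN1 and 1.63 times at CCN2, and the median over the 1343 genes with a start peak in both lists was 1.49. The CCN2 peaks also lay inside LINC01013, an lncRNA gene that spans CCN2 on the opposite strand and starts 49488 bp from the shLacZ midpoint.

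The end of CCN1 differed between the lists in position. The shLacZ peak there (85584327 to 85584692, 366 bp) straddled the annotated gene end, from -262 to +103 bp relative to it, and stood at the 82.6 percentile, above the start peak of the same gene. It lay beyond the end of the canonical transcript at 85583950. The shRRN3 peak began 366 bp past the gene end, was 228 bp wide and stood at the 15.2 percentile, and the peaks did not overlap, with 263 bp between their edges. By percentile, the stronger CCN1 call was thus the one at the end with shLacZ and the one at the start with shRRN3. CCN2 had no peak at or past its end in either list.

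ANKRD1, which encodes a nuclear ankyrin-repeat cofactor and is another common YAP readout (chromosome 10, 90912096 to 90921087, minus strand), had no peak in either list. The nearest peak was 1002457 bp away with shLacZ and 488499 bp away with shRRN3, and the 1 Mb on either side held 0 and 3 peaks. A gene without a peak fell below the calling threshold, which does not show that Pol II was absent.

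**Figure D2:**
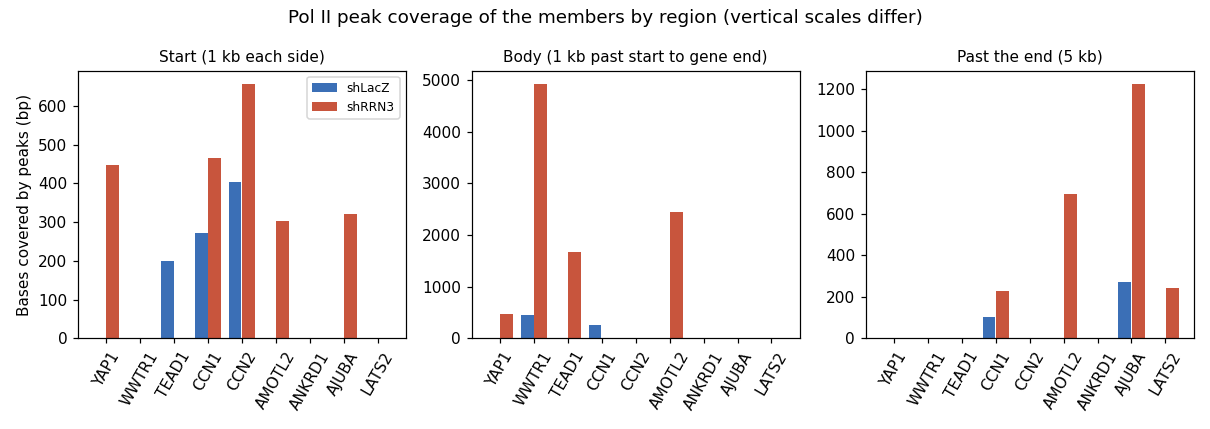
Bases covered by Pol II peaks at each of the 9 genes, in bp, split by region (start, body and past the end), for shLacZ and shRRN3, each bar 1 library with no error bar. The vertical scales differ between regions. WWTR1 reaches 4933 bp in its body with shRRN3 against 452 bp with shLacZ, and CCN1 and CCN2 have start coverage in both lists.

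AMOTL2 encodes an angiomotin that binds YAP and holds it outside the nucleus, and it is also a YAP target (chromosome 3, 134355347 to 134375479, minus strand). It had 4 peaks in the shRRN3 list, and the nearest shLacZ peak lay 110164 bp away. The start peak was 548 bp wide at the 23.8 percentile, with its midpoint 51 bp from an annotated AMOTL2 transcript start. The widest shRRN3 peaks of all 9 genes lay in its introns 5 and 9, 1078 bp and 1120 bp wide, at the 61.3 and 67.2 percentiles. The last, 695 bp wide at the 28.7 percentile, began 349 bp past the gene end and overlapped the pseudogene RPL39P5 on the same strand. AMOTL2 thus carried wide but middling calls over its length, and none of the 4 was among the 3920 highest-scoring peaks.

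AJUBA, a LIM-domain adaptor that inhibits the LATS kinases (chromosome 14, 22971177 to 22982551, minus strand), had a start peak in the shRRN3 list alone. It was 320 bp wide at the 82.0 percentile and covered both the AJUBA start and that of its divergent lncRNA AJUBA-DT, which was 108 bp from the peak midpoint. The highest-scoring shRRN3 peak of all 9 genes lay past the AJUBA end, from 3931 to 4900 bp, at the 96.5 percentile (rank 508) and 970 bp wide. The shLacZ list held a peak wholly inside it, 272 bp wide at the 59.1 percentile, and a second shRRN3 peak of 257 bp at the 40.2 percentile began 3494 bp past the end. All 3 peaks also lay within ENSG00000259132, a protein-coding annotation from 22946270 to 22982258 on the same strand that runs through the AJUBA end towards HAUS4. The HAUS4 start was 9424 to 10394 bp from their midpoints and the AJUBA gene start 14996 to 15965 bp, although another annotated AJUBA transcript began 7740 to 8709 bp away.

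LATS2, the kinase that inhibits YAP and TAZ (chromosome 13, 20973036 to 21061586, minus strand), had 1 peak, in the shRRN3 list. It was 243 bp wide, ran from 3565 to 3807 bp past the gene end and stood at the 14.6 percentile. Its start and body had no peak in either list. This call, like those past AJUBA, was thus several kb from the gene end, and with a flank of 2 kb LATS2 had no peak.

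**Figure D3:**
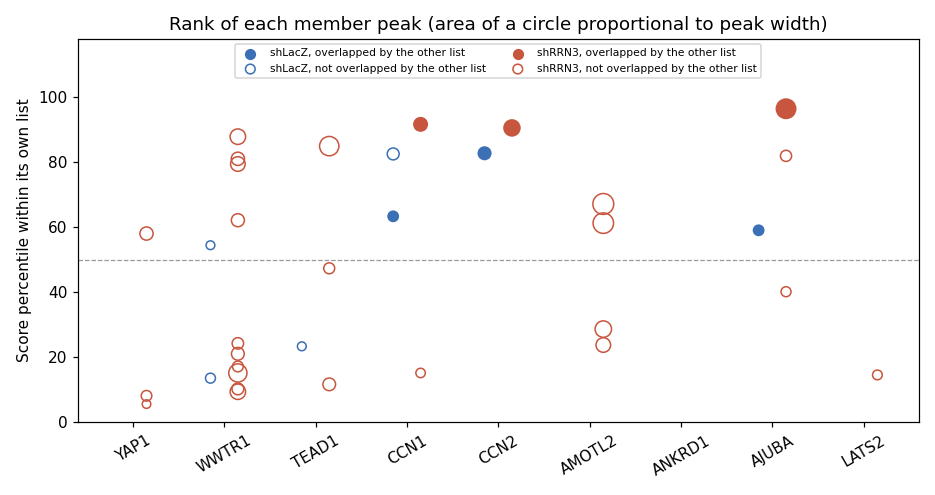
Score percentile of each member peak within its own list, by gene, where 100 is the highest-scoring peak and the dashed line at 50 marks the list median. Filled circles overlap a peak of the other list, open circles do not, and circle area is proportional to peak width. Of the 7 shLacZ points 5 stand at or above the median, and of the 27 shRRN3 points 12 do, with AJUBA, CCN1 and CCN2 above 90.

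Summed over the 9 genes there were 7 shLacZ and 27 shRRN3 peaks, a ratio of 3.86 (exact 95% interval 1.64 to 10.5), and over all protein-coding genes with their flanks the ratio was 3.93 (3.77 to 4.09). Intervals here and below cover counting error only, as though peaks were independent. These ratios were close in value, but with 7 and 27 peaks the interval is too wide to show that members and other genes are alike. Covered bases were 1966 and 14120, a ratio of 7.18 against 5.17 for all protein-coding genes. This ratio was 5.43 without AMOTL2 and 10.1 without CCN1, the lowest and highest values on leaving out 1 member. By region, peak counts were 3 and 5 at starts (ratio 1.67, 0.324 to 10.7, against 3.41 over all genes), 3 and 18 in bodies (6.0, 1.75 to 31.8, against 4.45), and 2 and 5 past the ends (2.50, 0.409 to 26.3, against 3.59). These intervals are wide and were not used to compare the members with all genes. Peaks of 1 gene are not independent, and WWTR1 held 10 of the 18 body peaks with shRRN3. The covered-base ratio was 2.50 at starts, 13.3 in bodies and 6.38 past the ends, against 4.3, 6.08 and 4.92. Per member, covered bases ran from 0 to 638 (median 200.0) with shLacZ and from 0 to 4933 (median 923.0) with shRRN3, and the median over all protein-coding genes was 0 in both lists.

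The lists met at 3 places among these genes, the starts of CCN1 and CCN2 and the region past AJUBA. In each, the shLacZ peak was contained in the shRRN3 peak, as were 63.9% of the 2504 shLacZ peaks overlapped by 1 shRRN3 peak. The shRRN3 peak was 1.71, 1.63 and 3.57 times as wide, and the median ratio over those 2504 was 1.65. Thus 3 of 7 shLacZ member peaks were overlapped (42.9%, 9.90 to 81.6%, exact Clopper-Pearson 95%), against 66.2% of all 3920 shLacZ peaks. From the other side 3 of 27 shRRN3 member peaks were overlapped (11.1%, 2.35 to 29.2%), against 16.9% of all 14322. WWTR1 and TEAD1 had peaks in both lists that shared no base. Midpoints within 1 kb of an annotated transcript start of the member made up 3 of 7 with shLacZ (42.9%) and 14 of 27 with shRRN3 (51.9%). Over the peaks at all protein-coding genes, 59.4% and 52.9% were that near a start of any coding gene, which is a wider measure.

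The highest-scoring intronic peaks of TEAD1 and WWTR1 more than 1 kb from a transcript start are shown because both held a pair of AP-1 motifs. They were picked for these letters and do not stand for the other member peaks. The 300 bases around each shRRN3 peak's centre are given on the plus strand of GRCh38, with the AP-1 motif in capitals. The marked stretches differ in their centre base, which the motif leaves free.
TEAD1 intron 2, chr11:12693648-12693947: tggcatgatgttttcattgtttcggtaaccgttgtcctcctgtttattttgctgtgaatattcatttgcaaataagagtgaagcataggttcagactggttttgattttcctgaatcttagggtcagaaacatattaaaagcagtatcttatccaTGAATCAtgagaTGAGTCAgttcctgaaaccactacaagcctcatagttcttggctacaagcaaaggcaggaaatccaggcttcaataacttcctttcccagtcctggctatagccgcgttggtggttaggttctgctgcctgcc
WWTR1 intron 3, chr3:149554873-149555172: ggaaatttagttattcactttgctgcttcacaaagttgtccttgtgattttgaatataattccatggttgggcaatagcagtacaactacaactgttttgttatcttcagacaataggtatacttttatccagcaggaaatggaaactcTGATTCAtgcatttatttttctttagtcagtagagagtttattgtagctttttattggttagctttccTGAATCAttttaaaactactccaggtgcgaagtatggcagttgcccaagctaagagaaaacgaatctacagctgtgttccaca

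Neither sequence held a TEAD motif. Over all 27 shRRN3 member windows 5 held an AP-1 motif, a smaller share than the 26.9% of all shRRN3 windows. A TEAD motif was in 7 of the 27, against 20.4% of all shRRN3 windows. Of the 7 shLacZ member windows 1 held an AP-1 motif and 4 a TEAD motif, against 19.2% and 22% of all shLacZ windows, and the window at the TEAD1 start alone held 3 TEAD motifs. Windows were 300 bp whatever the peak width, so member counts of the lists are not directly comparable. At the CCN1 start the shLacZ window held a TEAD motif just outside its peak. The wider shRRN3 peak covered that motif, but its window missed it. At the TEAD1 start 1 of the 3 motifs also lay outside the peak. A TATA box was in 4 of 7 and 6 of 27 member windows (17.7% and 17.2% of all), and a GC box in 3 of 7 and 5 of 27 (30.3% and 28.0%). A CArG box, the site of SRF, was in 1 window of each list (1.76% and 1.89% of all). Both windows lay past the AJUBA end and overlap, so this was the same site seen in each list.

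**Figure D4:**
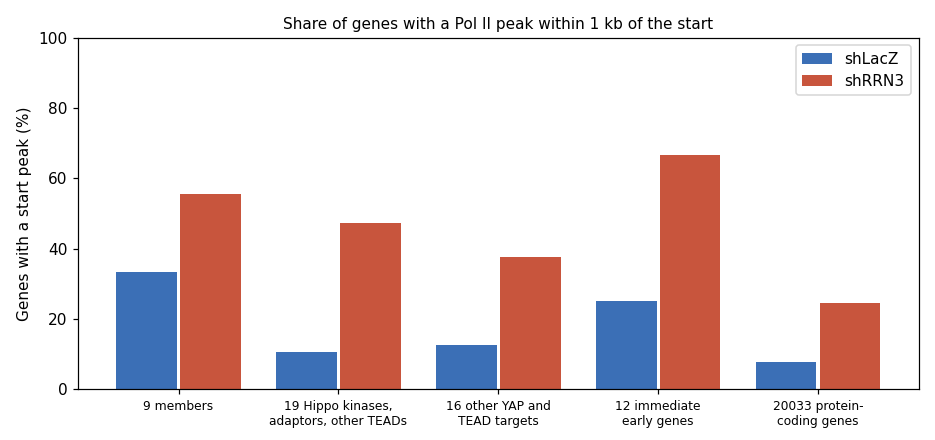
Share of genes with a Pol II start peak, in percent, in the shLacZ and the shRRN3 list, for the 9 genes, 3 related gene lists and all protein-coding genes. The 9 genes stand at 33.3% and 55.6%, and all protein-coding genes at 7.75% and 24.6%.

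Among 19 other Hippo kinases, adaptors and TEADs, 2 (10.5%) had a start peak with shLacZ and 9 (47.4%) with shRRN3. Over all protein-coding genes the shares were 7.75% and 24.6%. The kinase genes LATS1 and TAOK1 were the 2 with shLacZ, at the 82.5 and 48.7 percentiles, and stood at 95.6 and 97.1 with shRRN3, and TAOK3 had a start peak with shRRN3 alone, at 82.8. LATS1 thus had a start peak called in both lists, and its paralog LATS2 in neither. Among 16 other YAP and TEAD targets, 2 (12.5%) had a start peak with shLacZ and 6 (37.5%) with shRRN3. F3, the coagulation initiator tissue factor, covered 1290 bp at its start with shLacZ and 1613 bp with shRRN3, at the 88.8 and 99.4 percentiles, more than CCN1 or CCN2 in either list. The stress gene GADD45A had start peaks at the 63.6 and 79.1 percentiles, and MYOF had one with shRRN3 alone, at 35.0. Among 12 immediate early genes, which answer growth signals through SRF and AP-1, 3 (25.0%) had a start peak with shLacZ and 8 (66.7%) with shRRN3. JUN (90.5 and 97.9) and JUNB (91.4 and 96.9) exceeded CCN1 and CCN2 in percentile in both lists, FOSL2 stood at 54.2 and 60.5, and FOS had a start peak with shRRN3 alone, at 94.0. Past-the-end peaks were found at 1 and 2 of the 19 Hippo genes, 3 and 4 of the 16 targets and 1 and 4 of the 12 immediate early genes. Of all protein-coding genes 2.62% and 8.68% had one. By median over the genes of a list, covered bases were 0 in the shLacZ list for all 3, and 906, 912 and 1101.5 bp in the shRRN3 list in the same order. Their median gene lengths were 114, 49.5 and 6.50 kb, against 27.5 kb for all protein-coding genes, and covered bases were not scaled by length.

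By the covered bases at start, body and past the end in both lists (6 values, on a log2 scale with 100 bp added), the protein-coding genes most like CCN2 were VAMP1 (distance 0.0217) and ZNF346 (0.0370), each with a start peak of about the same width in each list and nothing elsewhere. VAMP1 covered 410 and 651 bp and ZNF346 398 and 641 bp. CCN1 had no such close match, since its nearest genes, RBM15 and RSF1, both lay at a distance of 2.00 and had no shLacZ peak past the end.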

How the data were processed

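SK-OV-3 cells with shLacZ or shRRN3 were profiled by Pol II ChIP-seq, with 1 Pol II library and 1 input library per hairpin. The authors deposited 1 peak list per hairpin, with hg38 named in their processing notes and MACS in the peak names, whose version and settings are not given in the sources used here. Each of the 2 lists holds the start and end of every peak with a score. The deposited score was taken as a scaled −log10 p from its range (minimum 50, ceiling 3100) and used for ranks within a list, apart from 1 alternative with a common score minimum. Input reads and depth were not analysed here. Chromosome accessions were matched to GRCh38, and no peak ran past a chromosome end.

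Peaks were assigned to GENCODE release 44 genes by at least 1 bp of overlap with the start (1 kb on either side), the body, the 5 kb past the end or the stretch from 5 to 1 kb before the start. Score percentiles were computed over all peaks of a list. Intervals were exact and at the 95% level. No test was run, since each group had 1 library. All 9 members were named, genes of the other lists where they had a start peak with shLacZ or among the 3 highest start scores, and the closest genes to CCN1 and CCN2 by the distance over 6 values. The members and lists were chosen with earlier results of these data known. Motifs were counted on both strands in RefSeq promoters and in 300 bp peak windows. Assignment was checked against bedtools 2.31.1 and tested on simulated peaks. Alternatives covered region sizes, transcript starts, overlap rules, score minimums, a list of equal length, peaks nearer another gene and leaving out each member. Python 3.11.15, pandas 2.3.3 and scipy 1.17.1 were used.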

Additional observations from a re-analysis of the deposited data

How the results depend on the processing

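Of 73 alternative values computed for 8 results, 64 stayed within 1.5 times the value reported. The order of the past-the-end counts turned in 2 settings, those with the top-scoring list and the common score minimum, each with 2 members in the shLacZ list and 1 in the shRRN3 list against 2 and 4 as reported. With only the top 3920 shRRN3 peaks by score, 5 members had a peak, 3 a start peak (CCN1, CCN2 and AJUBA) and 1 a past-the-end peak, the ratio of peaks was 1.14 and that of covered bases 2.54. This list is shorter by construction, and the shRRN3 peaks it leaves out are the lower-scoring ones. Shares and ratios over all genes were not computed under the alternatives, so these member values have no scale beside them. The common score minimum, 65.58 in both lists, compares scores between libraries. It left 4 members with a peak in the shLacZ list and 7 in the shRRN3 list, and 2 and 4 with a start peak. The ratio of peaks was then 2.80 and that of covered bases 5.72. Past the end it left 2 members in the shLacZ list (CCN1 and AJUBA) and 1 in the shRRN3 list (AJUBA). Counting peaks by their midpoint left 1 past-the-end member in the shLacZ list. Leaving out peaks nearer another coding gene's start left 1 in the shLacZ and 2 in the shRRN3 list. Leaving out each member in turn gave ratios of 3.29 to 5.0 for peaks and 5.43 to 10.1 for covered bases. The start count with shRRN3 was 4 with a 0.5 kb window, 6 with a 2 kb window and 7 over any transcript start, which added WWTR1 and TEAD1. No paired analysis was possible because each hairpin had 1 library. Without read counts, peaks just under the threshold could not be seen, and the cause of the difference in list length was not tested.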
